A study of Mus musculus with 4 samples.

Results

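The transcripts of 10 genes of the nuclear factor kappa B (NF-κB) system were followed in cultured mouse breast cancer cells treated with an iron chelator. They are the subunit genes Nfkb1, Nfkb2, Rela and Relb, the inhibitor genes Nfkbia and Nfkbie, the feedback genes Tnfaip3 and Birc3, and the target genes Icam1 and Tnf. The rule that picks them uses the gene symbol and no measured value, although the list was drawn up with earlier results of these data known. Each symbol was found once among the 49585 genes of the expression matrix. Of the 10 members, 8 passed the filter on low values, 1 FPKM or more in 1 library or more (FPKM is the number of fragments on a gene scaled for its length and for the total of the library). Each of those 8 was at or above that level in all 4 libraries. Icam1 and Tnf did not pass it.

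The cells were 4T1-HM and 4T1-LM, clones of the mouse triple-negative breast cancer line 4T1 of high and low metastatic capacity, each grown from a single cell. Each clone was cultured for 48 h with DMSO alone (HM_Ctrl and LM_Ctrl) or with 50 μmol/L of deferasirox (DFX), an oral iron chelator, dissolved in DMSO (HM_DFX and LM_DFX). There was 1 library for each of the 4 groups, so no difference has a replicate check, no p-value is given, and differences between the clones cannot be told apart from differences between any pair of 4T1 clones. Error is given as a 95% counting interval, which covers the sampling of fragments only and not the spread between cultures.

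NF-κB is a family of transcription factors made of paired subunits that share a Rel homology domain for binding DNA. Inhibitor proteins of the IκB family hold the dimers in the cytoplasm until a receptor signal leads an IκB kinase to mark the inhibitor for destruction. The released dimers switch on, among others, the genes of their own inhibitors, so the pathway carries its own brake, and it is widely studied in breast cancer for inflammatory signaling and survival. The files hold transcript levels and not protein, DNA binding or location in the cell.

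The libraries held between 14363065 fragments (HM_DFX) and 21883853 fragments (LM_DFX), and the median expressed gene had 404 to 689 fragments. The 8 members that passed the filter had between 206 (Birc3 in HM_Ctrl) and 7864 fragments (Rela in LM_DFX). Of 4 genes known to rise when iron is chelated or oxygen is low, all were higher under DFX in both clones. At least 2-fold higher were 1 in 4T1-HM and 3 in 4T1-LM. Ndrg1 was at 177 FPKM in HM_Ctrl and 577 FPKM in HM_DFX, and at 49.1 FPKM in LM_Ctrl and 613 FPKM in LM_DFX. Below 2-fold in 4T1-HM were Vegfa (31.9 to 63.5 FPKM), Slc2a1 (107 to 207 FPKM) and Tfrc (102 to 175 FPKM). For HM_DFX over LM_DFX, the log2 ratios of FPKM + 1 of these 4 genes lay between -0.23 and -0.09. Of 7 epithelial markers, 6 were at 1 FPKM or above in every library, as for cells of epithelial origin. Their summed level was 1682 FPKM without and 487 FPKM with DFX in 4T1-HM, and 2241 and 1001 FPKM in 4T1-LM, so it was lower in both DFX libraries. Of the 7 immune cell markers measured, Cd68 was the one at 1 FPKM or above (12.3 to 83.1 FPKM, higher under DFX in both clones), and Adgre1 and Cd3e were listed at 0 in every library. Of 6 fibroblast and endothelial markers, Pdgfra was the one at 1 FPKM or above. The part of these markers in the results was not tested. In bulk RNA, fewer cells that express a gene and less RNA of it per cell cannot be told apart.

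The DNA that NF-κB dimers bind is short enough to read by eye, so the promoters of the members that hold it are shown. RefSeq promoter windows (build GRCm38.p6, from 250 bases before to 50 bases after the start site) matched 8 of the 10 members with 11 windows, and Nfkb1 and Relb had no entry. The windows were searched on both strands for the κB consensus, a 10-base motif, and matches are in capitals. Nfkb2, Nfkbia, Nfkbie and Tnfaip3 held at least 1 match, and the windows of Rela, Birc3, Icam1 and Tnf held none. The 4 windows below are those of each matching gene's most upstream start site, all read 5′ to 3′ on the gene's own strand.
Nfkb2 (chr19:46304487-46304786, plus strand): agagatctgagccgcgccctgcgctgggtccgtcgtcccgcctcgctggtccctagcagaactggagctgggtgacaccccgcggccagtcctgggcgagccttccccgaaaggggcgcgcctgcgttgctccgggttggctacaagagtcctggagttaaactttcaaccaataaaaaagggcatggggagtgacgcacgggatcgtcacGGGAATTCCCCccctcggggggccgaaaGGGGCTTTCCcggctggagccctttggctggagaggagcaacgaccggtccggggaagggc
Nfkbia (chr12:55492598-55492897, minus strand): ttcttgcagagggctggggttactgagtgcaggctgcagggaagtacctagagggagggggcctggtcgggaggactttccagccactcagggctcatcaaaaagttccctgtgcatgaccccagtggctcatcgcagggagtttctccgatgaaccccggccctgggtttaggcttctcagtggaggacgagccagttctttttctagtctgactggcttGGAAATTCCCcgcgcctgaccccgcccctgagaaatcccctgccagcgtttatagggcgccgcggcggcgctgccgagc
Nfkbie (chr17:45555450-45555749, plus strand): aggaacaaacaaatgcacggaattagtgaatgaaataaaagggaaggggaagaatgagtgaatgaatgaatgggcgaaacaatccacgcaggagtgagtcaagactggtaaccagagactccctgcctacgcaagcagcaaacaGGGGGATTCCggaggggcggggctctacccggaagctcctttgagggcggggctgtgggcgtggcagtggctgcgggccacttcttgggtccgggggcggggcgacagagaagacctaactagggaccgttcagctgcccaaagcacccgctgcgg
Tnfaip3 (chr10:19015361-19015660, minus strand): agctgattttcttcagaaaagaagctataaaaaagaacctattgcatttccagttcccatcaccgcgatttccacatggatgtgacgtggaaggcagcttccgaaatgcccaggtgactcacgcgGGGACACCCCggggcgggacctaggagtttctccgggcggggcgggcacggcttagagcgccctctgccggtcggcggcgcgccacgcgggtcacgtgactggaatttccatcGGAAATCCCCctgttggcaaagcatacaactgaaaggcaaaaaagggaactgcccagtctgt

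Counted from the start site, the 3 matches of the Nfkb2 window began at positions -39, -38 and -11, and those at -39 and -38 overlap in 1 run of capitals. The Nfkbia match began at -29 and the Nfkbie match at -106. The Tnfaip3 matches began at -125 and -12. Nfkb2 has another pair of start sites further downstream, and their overlapping windows shared 1 match, and 1 of them held another. A match to this motif was found in 8.46% of all 32851 mouse promoter windows, or in 9.55% of 27025 genes with a window, and 1.22% of windows held at least 2. A match is a description of the letters and not a measured binding site, and no match says only that the letters are not in that window.

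**Figure D1:**
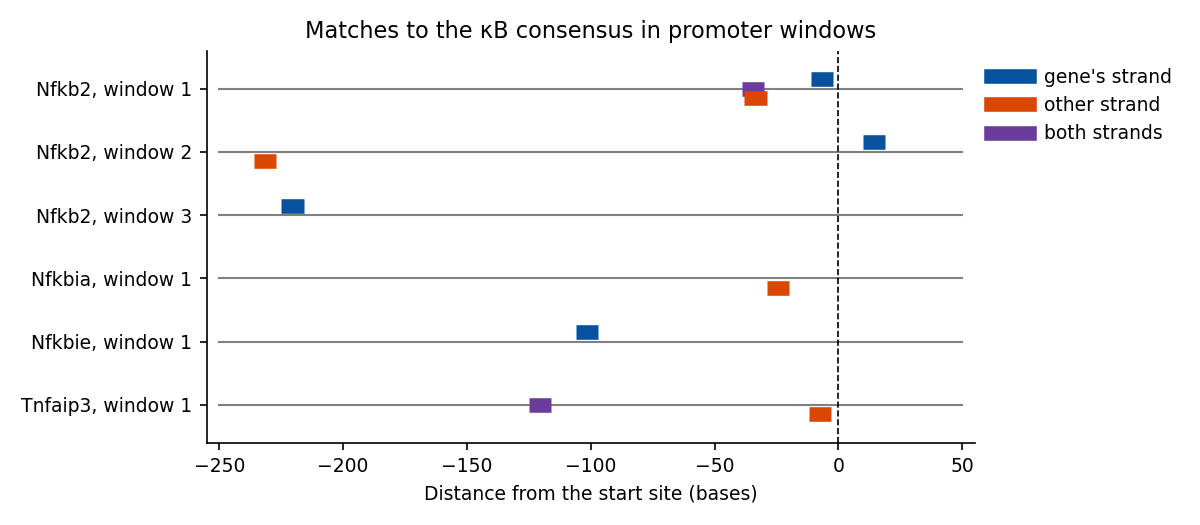
Places of the κB consensus in the promoter windows of the members that hold it, as distance in bases from the start site (x axis). Each grey line is 1 window, a bar is 1 match of 10 bases, and the color gives the strand. The matches of Nfkb2 window 1, Nfkbia and 1 of the Tnfaip3 matches lie within the 39 bases before the start site.

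Counted over the 8 members that passed the filter, DFX was followed by at least 2-fold higher levels of 6 in 4T1-HM (Nfkb2, Rela, Relb, Nfkbia, Tnfaip3 and Birc3) and of 3 in 4T1-LM (Rela, Relb and Nfkbia). None was at least 2-fold lower in either clone. Among all 12669 expressed genes, 6.93% were at least 2-fold higher and 12.4% at least 2-fold lower in 4T1-HM, and 7.09% and 8.72% in 4T1-LM. The median log2 ratio of the members was 1.15 in 4T1-HM (0.06 to 2.70) and 0.36 in 4T1-LM (-0.57 to 1.90), beside -0.10 and -0.04 over all expressed genes. All 8 were above 0 in 4T1-HM and 5 of 8 in 4T1-LM. With 1 library per group these counts describe the 4 libraries.

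Median-ratio scaling moved the median of all genes in 4T1-HM from -0.10 to 0.00 on the log2 scale, and the shares of genes higher and lower to 8.90% and 10.1%. It left the counts of members under DFX as they were. The summed epithelial markers, lower in both DFX libraries, moved with these counts, and their part was not tested.

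Among the subunit genes, Rela and Relb were at least 2-fold higher under DFX in both clones, Nfkb2 in 4T1-HM, and Nfkb1 in neither. Rela encodes the main activating subunit of the canonical pathway (ENSMUSG00000024927, mm10 chromosome 19, 5637483 to 5648130, plus strand). The 4T1-HM libraries held 43.9 FPKM (DMSO) and 136 FPKM (DFX), and the 4T1-LM libraries 34.8 and 132 FPKM. Both DFX libraries were far above both controls, and the DFX libraries did not differ beyond counting error (fold 1.03, 95% counting interval 0.993 to 1.06). The FPKM fold under DFX was 3.10 (2.94 to 3.26) in 4T1-HM and 3.81 (3.601 to 4.03) in 4T1-LM. On the log2 scale of FPKM + 1, on which genes were called, these were 1.61 and 1.90. In these comparisons, 1.89% and 1.67% of all expressed genes lay at least as far up.

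Relb encodes an activating subunit of the non-canonical pathway, which pairs mainly with the product of Nfkb2 (ENSMUSG00000002983, chromosome 7, 19606217 to 19629438, minus strand). Without and with DFX, it was at 5.46 and 23.9 FPKM in 4T1-HM and at 8.38 and 25.7 FPKM in 4T1-LM. As for Rela, both DFX libraries stood above both controls, and they were close to each other (fold 1.07 for LM_DFX over HM_DFX, 1.00 to 1.15). Its fold under DFX was 4.38 (3.89 to 4.93) in 4T1-HM and 3.06 (2.78 to 3.38) in 4T1-LM, or 1.95 and 1.51 on the log2 scale. Relb was the least abundant of these 4 subunit transcripts in each control, and under DFX it passed Nfkb1 in both clones.

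Nfkb2 encodes the precursor of the non-canonical DNA-binding subunit, which also acts as an inhibitor before it is processed (ENSMUSG00000025225, chromosome 19, 46304737 to 46312090, plus strand). In 4T1-HM it stood at 54.9 FPKM with DMSO and at 122 FPKM with DFX, and in 4T1-LM at 62.9 and 92.8 FPKM. The order was HM_Ctrl, LM_Ctrl, LM_DFX and HM_DFX, and no neighbours in it had a counting interval that held 1. The fold under DFX was 2.21 (2.12 to 2.31) in 4T1-HM, past the 2-fold threshold, and 1.48 (1.42 to 1.54) in 4T1-LM, below it. Exons of Nfkb2 overlap on the opposite strand with Psd (299 bases, 0.651 to 2.27 FPKM) and with an unnamed antisense gene (531 bases), and 16.3% of its stretches of 31 bases also occur in another gene. The authors' setting for strand is not given in the sources used here, so fragments from these stretches cannot be assigned to Nfkb2 with certainty. The overlaps and stretches were read from GENCODE release M21, whereas the deposited values of Nfkb2 were whole at a solved length of 3289 bases. Some of these stretches may therefore lie outside the exons that were counted.

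Nfkb1 encodes the precursor of the canonical DNA-binding subunit (ENSMUSG00000028163, chromosome 3, 135584655 to 135691547, minus strand). The 4T1-HM libraries held 11.7 FPKM (DMSO) and 15.7 FPKM (DFX), and the 4T1-LM libraries 18.1 and 16.1 FPKM. It varied least of the 8 members, with a range of 0.59 on the log2 scale, against 2.70 for Nfkbia. Its fold under DFX was 1.34 (1.27 to 1.42) in 4T1-HM and 0.889 (0.850 to 0.930) in 4T1-LM, neither past 2-fold. The counting intervals lay on opposite sides of 1. The clones stood further apart without DFX than with it, where they did not differ beyond counting error (fold 1.02 for LM_DFX over HM_DFX, 0.975 to 1.07).

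The subunits together, with Rel added, summed to 119.6 FPKM without and 307 FPKM with DFX in 4T1-HM, and to 128 and 273 FPKM in 4T1-LM. Their make-up moved with DFX in both clones. Rela made up 36.7% of the sum without and 44.3% with DFX in 4T1-HM, and 27.2% and 48.5% in 4T1-LM. Nfkb1 went the other way, from 9.78% to 5.11% in 4T1-HM and from 14.1% to 5.88% in 4T1-LM. The transcripts of Rela and Nfkb1, whose products form the classical heterodimer, stood at a ratio of 3.76 without and 8.67 with DFX in 4T1-HM, and of 1.92 and 8.24 in 4T1-LM. The controls of the clones differed in this ratio, and the DFX libraries were near each other. For the non-canonical pair, the ratio of Relb to Nfkb2 went from 0.0993 to 0.196 in 4T1-HM and from 0.133 to 0.276 in 4T1-LM, higher under DFX in both clones. Both terms of such a ratio come from the same library, so it does not depend on how libraries are scaled.

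**Figure D2:**
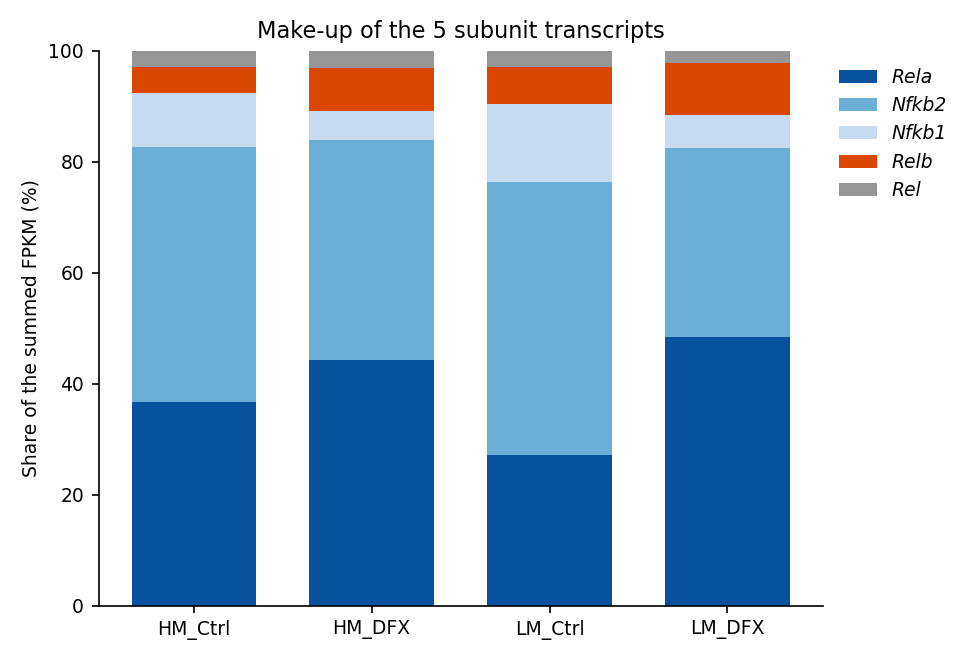
Share of each of the 5 subunit transcripts in their summed FPKM (y axis, percent) in the 4 libraries. Under DFX, Rela has a larger share than in the control of the same clone (44.3% and 48.5%), and Nfkb1 a smaller share than in that control (5.11% and 5.88%).

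The inhibitors did not move together, since Nfkbia was at least 2-fold higher under DFX in both clones and Nfkbie in neither. Nfkbia encodes IκBα, the inhibitor that NF-κB restores fastest after a signal (ENSMUSG00000021025, chromosome 12, 55489411 to 55492647, minus strand). Without and with DFX, it was at 24.3 and 164 FPKM in 4T1-HM and at 30.4 and 82.2 FPKM in 4T1-LM. It had the largest change of the 8 members in 4T1-HM, with a fold of 6.72 (6.18 to 7.32), against 2.71 (2.50 to 2.94) in 4T1-LM. On the log2 scale the responses were 2.70 and 1.41, and 0.261% and 3.46% of expressed genes lay at least as far up. The response in 4T1-HM was 2.48 times that in 4T1-LM (2.21 to 2.79). In HM_DFX, Nfkbia was the most abundant member, and 2.14% of expressed genes were above it.

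Nfkbie encodes IκBε, an inhibitor that returns later and damps oscillation of the pathway (ENSMUSG00000023947, chromosome 17, 45555716 to 45563169, plus strand). In 4T1-HM it stood at 7.57 FPKM with DMSO and at 7.93 FPKM with DFX, and in 4T1-LM at 22.3 and 14.7 FPKM. Both 4T1-HM libraries were below both 4T1-LM libraries. The fold under DFX was 1.05 (0.888 to 1.24) in 4T1-HM, within counting error, and 0.657 (0.595 to 0.725) in 4T1-LM, lower but not past 2-fold. Nfkbie was the only member past 2-fold between the untreated clones, with a fold of 0.339 (0.297 to 0.387) for HM_Ctrl over LM_Ctrl. In that comparison, 1.29% of expressed genes lay at least as far down.

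Set against the subunit it binds, Nfkbia stood at a ratio to Rela of 0.553 without and 1.20 with DFX in 4T1-HM, and of 0.873 and 0.621 in 4T1-LM. The ratio was higher under DFX in 4T1-HM and lower under DFX in 4T1-LM. The ratio of Nfkbia to Nfkbie went from 3.21 to 20.6 in 4T1-HM and from 1.36 to 5.604 in 4T1-LM. Nfkbia exceeded Nfkbie in all 4 libraries, by most in HM_DFX.

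Of the feedback and target genes, Tnfaip3 and Birc3 were at least 2-fold higher under DFX in 4T1-HM and not in 4T1-LM, while Icam1 and Tnf were close to absent. Tnfaip3 encodes a ubiquitin-editing enzyme that shuts down signaling from receptors to the IκB kinase (ENSMUSG00000019850, chromosome 10, 19000910 to 19015657, minus strand). The 4T1-HM libraries held 9.84 FPKM (DMSO) and 20.96 FPKM (DFX), and the 4T1-LM libraries 18.3 and 17.8 FPKM. HM_Ctrl stood below the other 3 libraries, and the 4T1-LM libraries did not differ beyond counting error. The fold under DFX was 2.13 (1.98 to 2.29) in 4T1-HM and 0.972 (0.918 to 1.03) in 4T1-LM. The call in 4T1-HM lies near the threshold, since 2-fold is within its interval. The ratio of Tnfaip3 to Rela went from 0.224 to 0.154 in 4T1-HM and from 0.525 to 0.134 in 4T1-LM, lower under DFX in both clones.

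Birc3 encodes a ubiquitin ligase that attaches signaling chains at the TNF receptor and restrains the non-canonical kinase (ENSMUSG00000032000, chromosome 9, 7848699 to 7873186, minus strand). Without and with DFX, it was at 2.46 and 6.78 FPKM in 4T1-HM and at 4.11 and 4.75 FPKM in 4T1-LM. HM_Ctrl was the lowest library and HM_DFX the highest, as for Tnfaip3. Its fold under DFX was 2.76 (2.34 to 3.27) in 4T1-HM and 1.16 (1.00 to 1.33) in 4T1-LM. Since Birc3 was low, the pseudocount brought its response in 4T1-HM to 1.17 on the log2 scale, less than the fold of FPKM. Of its stretches of 31 bases, 11.6% also occur in another gene.

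Icam1 encodes an adhesion molecule for leukocytes (ENSMUSG00000037405, chromosome 9, 21015985 to 21028817, plus strand). Only 2 fragments (0.0274 FPKM) were counted in HM_Ctrl and 10 (0.1597 FPKM) in HM_DFX. In LM_Ctrl there were 5 (0.0729 FPKM), and in LM_DFX 13 (0.136 FPKM). Both DFX libraries held more fragments than both controls, but neighbours in the order of the 4 levels did not differ beyond counting error. Its fold under DFX was 5.83 (1.24 to 54.7) in 4T1-HM and 1.87 (0.625 to 6.70) in 4T1-LM. Of its stretches of 31 bases, 14.8% also occur in another gene.

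Tnf encodes tumor necrosis factor, both a target and an inducer of the pathway (ENSMUSG00000024401, chromosome 17, 35199381 to 35202007, minus strand). It had 7 fragments in LM_DFX (0.195 FPKM) and 0 in the other 3 libraries. There the 95% counting interval of 0 reaches up to 3.69 fragments, or 0.134 FPKM in HM_Ctrl, 0.157 FPKM in HM_DFX and 0.143 FPKM in LM_Ctrl. The 95% counting interval of LM_DFX, 0.0785 to 0.402 FPKM, reached below these limits, so no fold is given. Neither gene entered the counts of members.

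**Figure D3:**
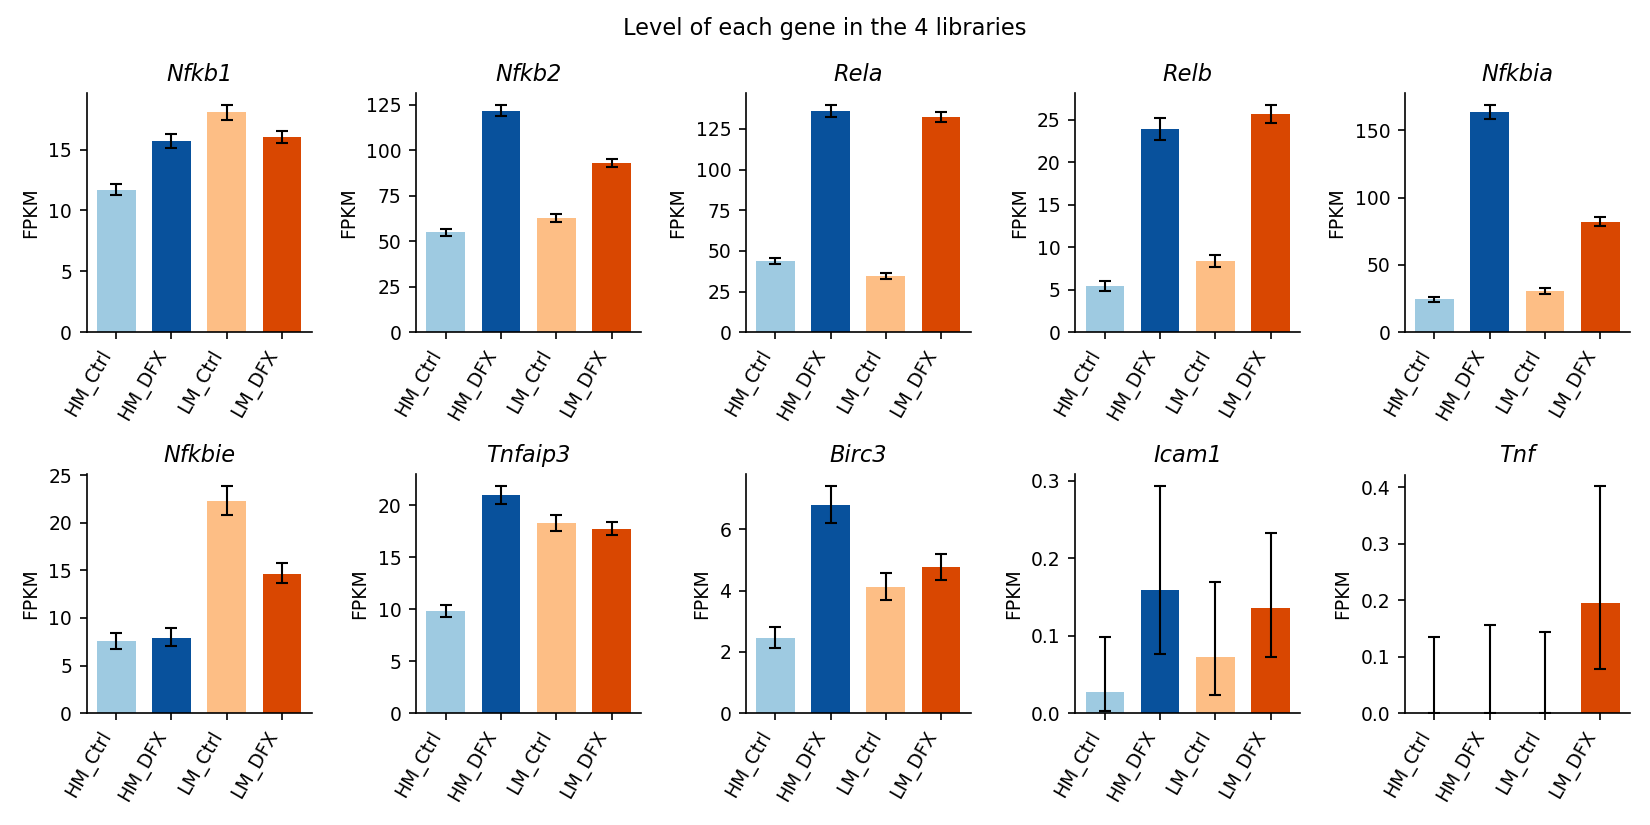
Level of each of the 10 genes (y axis, FPKM, each panel with its own scale from 0) in the 4 libraries. A bar is 1 library and its line the 95% counting interval; Rela and Relb stand high in both DFX libraries, Nfkbia is highest in HM_DFX at 164 FPKM, and Icam1 and Tnf stay under 0.2 FPKM.

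**Figure D4:**
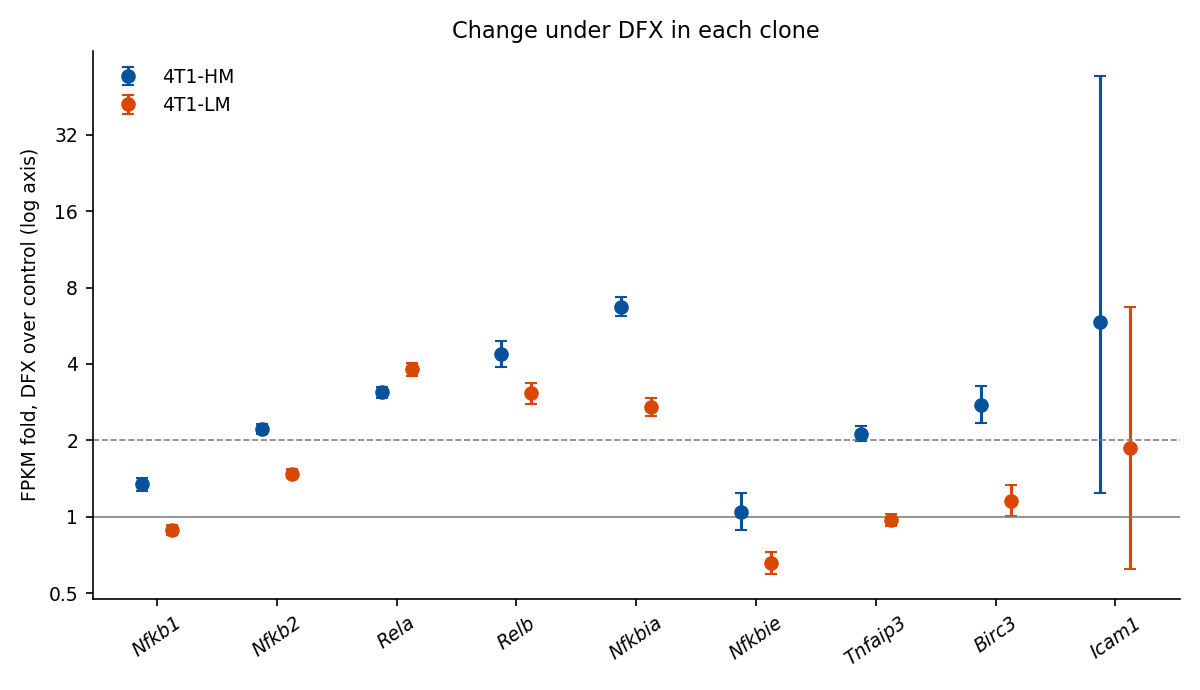
FPKM fold under DFX (y axis, log scale) of 9 members in 4T1-HM and 4T1-LM, each point from 1 DFX and 1 control library, with 95% counting intervals. The solid line marks 1 and the dashed line 2; Tnf is left out since its controls are at 0. Rela is the member with the higher fold in 4T1-LM (3.81 against 3.10).

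Without DFX, the question was whether the clones differed in these transcripts. Of the 8 members, Nfkbie was at least 2-fold lower in HM_Ctrl than in LM_Ctrl and none was at least 2-fold higher, while 3.15% of all expressed genes were lower and 3.65% higher by this measure. The median was -0.55, beside 0.01 over all expressed genes, and 7 of the 8 members were lower in HM_Ctrl, with folds between 0.339 and 0.874. Tnfaip3 stood at 0.539 (0.501 to 0.579), Birc3 at 0.597 (0.499 to 0.714), Nfkb1 at 0.648 (0.614 to 0.683) and Relb at 0.651 (0.567 to 0.747). Rela was the member that was higher in HM_Ctrl, at 1.26 (1.18 to 1.35).

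Under DFX, none of the 8 members was at least 2-fold higher or lower in HM_DFX than in LM_DFX, beside 3.31% and 5.05% of all expressed genes. The median was 0.13, beside -0.05 over all expressed genes. Nfkbia came closest, with a fold of 1.99 (1.90 to 2.09), and 2-fold lies within its interval. After median-ratio scaling and scaling to the 75th percentile it was past 2-fold, at 1.06 and 1.02 on the log2 scale. Nfkbie remained lower in 4T1-HM, with a fold of 0.541 (0.470 to 0.622). This comparison and the one without DFX share no library, but each shares its libraries with the responses to DFX.

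The difference between the responses of the clones was at least 2-fold, with the larger rise in 4T1-HM, for Nfkbia, Tnfaip3 and Birc3, and for no member in the other direction. Over all expressed genes, the difference was at least 2-fold toward 4T1-HM in 3.52% and toward 4T1-LM in 5.38%. The ratio of the responses was 2.48 for Nfkbia, 2.19 (2.00 to 2.40) for Tnfaip3 and 2.39 (1.92 to 2.98) for Birc3, whose log2 difference of 1.00 lies at the threshold. The other members stood between 0.813 (0.754 to 0.877) for Rela and 1.60 (1.31 to 1.94) for Nfkbie. The members' median difference was 0.61 on the log2 scale, beside -0.08 over all expressed genes. For Tnfaip3 the difference lay more in a lower HM_Ctrl (log2 ratio -0.83 to LM_Ctrl) than in a higher HM_DFX (0.23 to LM_DFX). Birc3 had both, at -0.56 and 0.44. For Nfkbia the HM_DFX level stood out more (0.98), with HM_Ctrl also lower (-0.31). A 2-fold call in 1 clone and not in the other is a statement on 4 single libraries, and no test of the difference was possible.

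The other 96 genes listed for the pathway, of which 81 were expressed, did not share one direction under DFX. In 4T1-HM 14 were at least 2-fold higher and 9 lower, and in 4T1-LM 14 were higher and 7 lower, with medians of 0.15 and 0.18 on the log2 scale. As shares of the expressed genes listed these are 17.3% and 11.1% in 4T1-HM, and 17.3% and 8.64% in 4T1-LM. Beside 6.93% and 12.4%, and 7.09% and 8.72%, of all expressed genes, the shares higher stood above and the shares lower did not. Counts of single lists below are to be read beside the same shares. In the difference of responses, 3 of the 81 were at least 2-fold toward 4T1-HM and 11 toward 4T1-LM. These are 3.70% and 13.6%, with a median of -0.005, unlike the members. Without DFX, 10 were at least 2-fold higher and 7 lower in HM_Ctrl than in LM_Ctrl, with a median of 0.008.

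Of the 6 other subunit and IκB genes, 3 were at least 2-fold higher in 4T1-HM and 2 in 4T1-LM, and none was lower. Nfkbib, which encodes the inhibitor IκBβ, was at 10.4 FPKM without and 49.6 FPKM with DFX in 4T1-HM, and 10.4 and 33.6 FPKM in 4T1-LM. Nfkbiz, which encodes a nuclear IκB protein that helps switch on a subset of targets, was at 7.11 and 19.4 FPKM in 4T1-HM and at 6.80 and 15.96 FPKM in 4T1-LM. Rel, the lymphoid-rich activating subunit, was at 3.59 FPKM in HM_Ctrl and 9.58 FPKM in HM_DFX, and its log2 ratio in 4T1-LM was 0.54. Bcl3, a nuclear cofactor of the DNA-binding subunits, was at 5.06 FPKM in LM_Ctrl and 2.88 FPKM in LM_DFX, below 2-fold.

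Of 24 expressed receptors and adaptors, 3 were at least 2-fold higher and 3 lower in 4T1-HM, and 3 higher and 2 lower in 4T1-LM. The adaptor Ticam1, which carries signals of Toll-like receptors, was higher in both clones, from 3.27 to 10.6 FPKM in 4T1-HM and from 3.14 to 11.6 FPKM in 4T1-LM. Traf2, a ligase at the TNF receptor, was also higher in both, from 5.69 to 13.9 FPKM and from 6.97 to 15.4 FPKM. Tlr3, a sensor of double-stranded RNA, went from 5.05 to 17.9 FPKM in 4T1-LM, and from 5.01 to 6.38 FPKM in 4T1-HM, below 2-fold. The interleukin receptor gene Il1r1 was lower in both clones, from 2.32 to 0.416 FPKM in 4T1-HM and from 7.08 to 1.59 FPKM in 4T1-LM.

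None of the 11 genes listed as kinases or their partner subunits was at least 2-fold higher or lower in either clone. Tab2, an adaptor of the kinase upstream of the IκB kinase, had the largest log2 ratio among them, 0.85 in 4T1-HM and 0.89 in 4T1-LM, and Chuk, a catalytic subunit of the IκB kinase, stood at 0.71 and 0.63. Of 14 expressed ubiquitin ligases and negative regulators, Rnf31, the catalytic part of the linear ubiquitin ligase, passed 2-fold in 4T1-LM (5.77 to 12.8 FPKM), and none passed in 4T1-HM. Of 9 ligands, 2 were expressed and neither passed 2-fold in either clone.

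Of 24 other known targets that were expressed, 8 were at least 2-fold higher and 6 lower in 4T1-HM, and 8 higher and 5 lower in 4T1-LM. Over all expressed genes the shares were 6.93% and 12.4% in 4T1-HM, and 7.09% and 8.72% in 4T1-LM. The chemokine genes Ccl5 and Cxcl10 had the largest log2 ratios of this list in both clones. Ccl5 was at 10.7 FPKM without and 278 FPKM with DFX in 4T1-HM, and 10.7 and 394 FPKM in 4T1-LM. Cxcl10 was at 3.39 and 77.6 FPKM in 4T1-HM and at 1.13 and 95.3 FPKM in 4T1-LM. Nos2, the inducible nitric oxide synthase, was at 0.541 and 6.83 FPKM in 4T1-HM and at 0.245 and 19.0 FPKM in 4T1-LM. Unlike the members Nfkbia, Tnfaip3 and Birc3, these 3 genes had the larger log2 ratio in 4T1-LM. Plau, the urokinase gene, was lower in both clones, from 70.5 to 10.3 FPKM in 4T1-HM and from 132 to 36.7 FPKM in 4T1-LM. Tap1, a peptide transporter of antigen presentation, was higher in both, from 1.13 to 4.63 FPKM and from 2.51 to 25.1 FPKM.

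**Figure D5:**
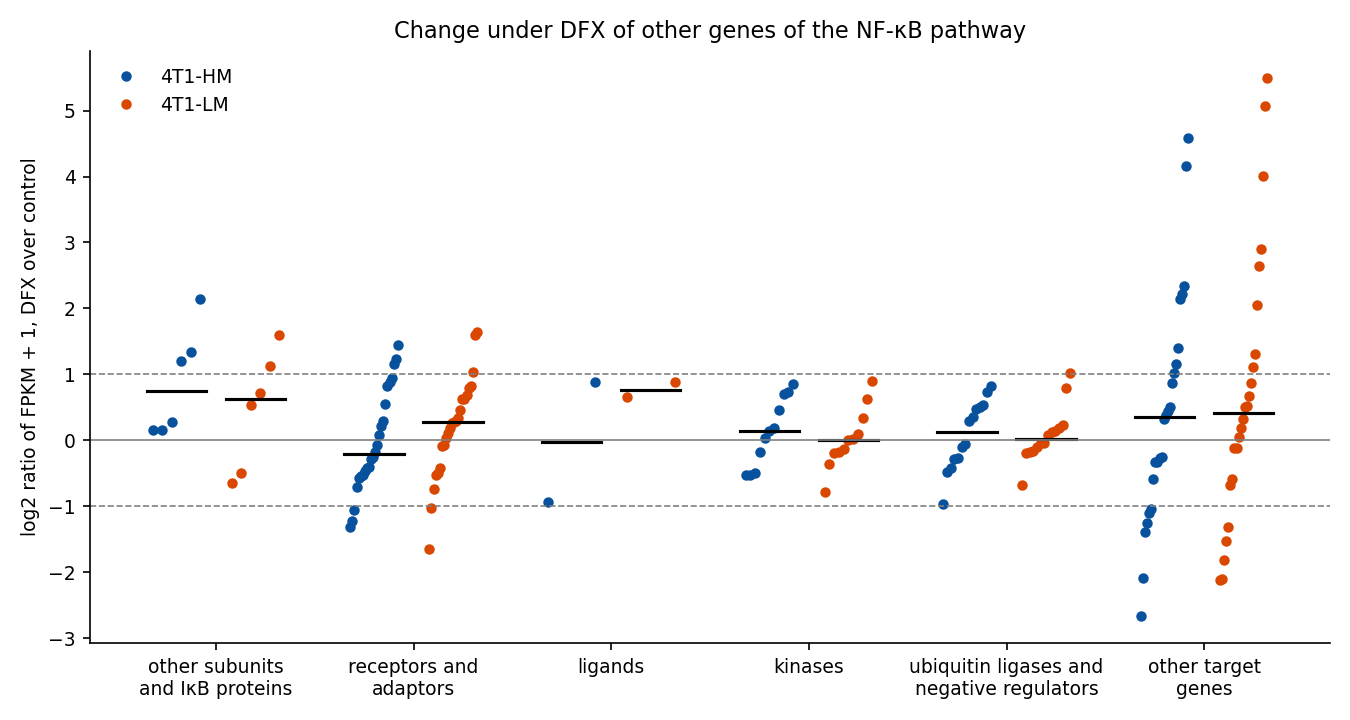
Log2 ratio of FPKM + 1 under DFX (y axis) of the expressed genes of 6 other lists of the NF-κB pathway in 4T1-HM and 4T1-LM, each point 1 gene and each bar the median of its list. Dashed lines mark 2-fold. The list labeled kinases, which also holds their partner subunits, stays within them. The other targets range from -2.67 to 4.58 in 4T1-HM.

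The member with the widest range, Nfkbia, was also compared in shape with other genes. Of 8300 protein-coding genes that reached 5 FPKM in any library, Zswim4 (8.81 and 47.8 FPKM in 4T1-HM, 8.37 and 26.8 FPKM in 4T1-LM) was the most like it, with a root mean square difference of 0.156 on the centred log2 scale over the 4 libraries. Nfkbib followed at 0.210, and Dot1l, a histone methyltransferase gene (11.3 and 51.7 FPKM in 4T1-HM, 12.1 and 29.98 FPKM in 4T1-LM), at 0.218. Likeness over 4 libraries is a description of shape.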

How the data were processed

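RNA was measured in 4 cultures, 1 library per group, and groups were taken from the sample labels. Total RNA was isolated by the authors, and directional libraries of poly(A) RNA were sequenced from both ends. The submitters' processing notes name FastQC, Trimmomatic, HISAT2 and featureCounts with build mm10. Versions, the annotation release and the strand setting are not given in the sources used here. The values are FPKM as the authors deposited them, with no filter and no pooling. The study called genes with edgeR, which was not repeated here because 1 library per group gives no estimate of spread.

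The members and gene lists were chosen with earlier results of these data known. A change is the log2 ratio of FPKM + 1 (pseudocount 1), taken for genes that reached 1 FPKM in any library, and called at 2-fold. Fragments were recovered from FPKM with exon lengths of GENCODE release M21, with 6 members whole within 0.02 of a fragment and the other 4 whole at a length solved from their values, for depth and for counting intervals. Ratios have exact (Clopper-Pearson) 95% intervals. The difference of responses has an exact conditional interval for genes under 1000 fragments per library and a log-normal approximation otherwise. Named genes were all 10 members, up to 4 genes per other list with the largest log2 ratio at an FPKM of at least 5, and the 3 genes most like the widest member. The calling was also run on simulated counts, which carried counting error only. They held no spread between cultures, so they cannot show how the calls hold across cultures. The κB consensus is the common 10-base form, matched on both strands. Python 3.11.15, numpy 2.4.6, pandas 2.3.3, SciPy 1.17.1 and matplotlib 3.10.9 were used.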

Additional observations from a re-analysis of the deposited data

Results flagged for a closer look

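For 3 members the log2 ratio under DFX was above 0 in 4T1-HM and below 0 in 4T1-LM. The difference in log2 ratio, 4T1-HM minus 4T1-LM, was 0.56 for Nfkb1 (0.39 in 4T1-HM and -0.16 in 4T1-LM), 0.63 for Nfkbie (0.06 and -0.57) and 1.06 for Tnfaip3 (1.02 and -0.04). None of these differences was tested, because each group has 1 library. The 4T1-HM change of Nfkbie and the 4T1-LM change of Tnfaip3 lie within counting error, and the latter is 0.01 under median-ratio scaling, so its opposite sign depends on the scaling.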

How the results depend on the processing

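Of 110 counts and medians that answer a comparison under an alternative, 101 were kept. A count was kept if it was equal, which includes 0 staying at 0, or within 1.5 times. A median was kept if its sign held and it moved by less than the counting error of its middle members. The tally includes counts under changed filters, which could not change for the members. A call at 1.5-fold gave 3 members lower in HM_Ctrl than in LM_Ctrl instead of 1, and 1 member higher and 1 lower in HM_DFX than in LM_DFX instead of 0. A call at 4-fold left 1 member (Nfkbia) higher under DFX in 4T1-HM instead of 6, 0 in 4T1-LM instead of 3, 0 lower in HM_Ctrl than in LM_Ctrl instead of 1, and 0 with the larger response in 4T1-HM instead of 3. Here the threshold itself makes the change. At 1.5-fold, 8.70% of all expressed genes were lower in HM_Ctrl than in LM_Ctrl. At that threshold, 9.95% were higher and 14.6% lower in HM_DFX than in LM_DFX. At 4-fold, 0.876% of all expressed genes were higher under DFX in 4T1-HM and 1.42% in 4T1-LM. For HM_Ctrl against LM_Ctrl, 0.434% were lower at 4-fold, and 0.395% had the larger response in 4T1-HM. Median-ratio scaling and scaling to the 75th percentile gave 1 member higher in HM_DFX than in LM_DFX instead of 0, which was Nfkbia at a log2 ratio of 1.06 and 1.02. Of all expressed genes, 3.9% and 3.6% were higher in HM_DFX under these scalings. The members called under DFX were unchanged in number in each clone with a pseudocount of 0.1 and with both scalings. So they were with recovered fragments over library totals without a pseudocount. Leaving out the filter, a mean of at least 1 FPKM and protein-coding genes only could not change these numbers. The same 8 members passed the latter filters, and without a filter Icam1 and Tnf were too low to reach 2-fold. The share of all genes called was not unchanged. In 4T1-HM with recovered fragments over library totals it was 10.2% higher and 19.9% lower. Among single members, 147 values moved by less than their counting error and 13 by more, and Nfkb1 in HM_DFX against LM_DFX, not called, went from -0.03 to 0.04 under median-ratio scaling. Leaving out a replicate could not be done with 1 library per group. No paired analysis was possible because each group has 1 library. Depth limits Icam1 and Tnf, with at most 13 and 7 fragments in a library.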
